A study of Mus musculus with 2 samples.

Results

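The miR-28, miR-151 and miR-708 genes form a group of related miRNA genes that were described as derived from LINE2 elements, an old class of retrotransposon. In the heart of the mouse embryo at embryonic day 16.5, Mir151 had the highest level, Mir28a followed and Mir708 came next, while Mir28b had 3 counts in each library. The group was taken by name as Mir28a, Mir28b, Mir151 and Mir708, which makes 4 of the 1973 miRNA genes listed in the deposited tables. Small RNA was sequenced in 2 libraries of 1 group, healthy B6NCrl embryos of both sexes with no treatment or engineered allele named in the labels. Each library came from its own pool of hearts, given by the labels as biological replicates 1 and 2. The pool of replicate 2 held 41 embryos, and no number is given for replicate 1. The labels name no second condition, and the questions were therefore how much of each miRNA the heart held and how far the pools differed.

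A miRNA is cut from a hairpin precursor and guides a silencing complex to messenger RNAs, mainly through its seed, bases 2 to 8 from the 5′ end. A hairpin can form where related copies of a transposable element lie close together in opposite directions, which is the proposed origin of these genes. These miRNAs are known from other settings. In germinal centre B cells miR-28 restrains proliferation, in human liver cancer cells miR-151 promotes cell movement, and in human breast cancer cells miR-708 restrains it. The precursor of miR-151 is also a known target of A-to-I RNA editing. No repeat annotation was used here, so the LINE2 origin is background and was not examined.

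The mature sequences are shown because they separate Mir28a and Mir708, which share a seed, from Mir28b. They are RefSeq sequences on GRCm38.p6, found for 3 of the 4 genes, with the seed in capitals. No entry was found for Mir151, so its seed was not compared. Mir28a and Mir708 each have an arm from either side of the hairpin (5p and 3p), and Mir28b has 1 mature entry.
miR-28a-5p: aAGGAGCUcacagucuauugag
miR-708-5p: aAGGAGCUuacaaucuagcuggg
miR-28b: aGGAGCUCacaaucuauuuag
miR-28a-3p: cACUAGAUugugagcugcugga
miR-708-3p: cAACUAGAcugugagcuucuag

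The 5p arms of miR-28a and miR-708 had the same seed, AGGAGCU, which 2 of 1738 mature mouse miRNAs in the table carried (0.115%), namely these 2. All 6 substitutions between them over 22 aligned bases lay outside the seed. Counted from the 5′ end of miR-708-5p, with its base first and that of miR-28a-5p last, they were U9C, A13G, G18U, C19U, U20G and G21A. The sequence of miR-28b began 1 base further along than miR-28a-5p, so that 11 bases of the pair were identical from base 1 of miR-28b and base 2 of miR-28a-5p. Aligned in that way, 19 of 21 bases matched, and the substitutions from miR-28b to miR-28a-5p were A12G and U19G. The shift gave miR-28b another seed, GGAGCUC, which no other mature miRNA in the table had. The Mir28c hairpin, described below, holds the bases of both seeds, but no mature entry of Mir28c with either stretch was in the table. The seed of Mir28c was therefore not compared. The 3p arms were also alike, with 17 of 21 bases matching once miR-708-3p was moved by 1 base, yet their seeds differed from each other. The deposited counts are per gene, so the 5p and 3p arms were not told apart.

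The hairpins shared longer stretches with other miRNA hairpins, which bears on the counts because the tables tally reads matching several places on a line of their own, apart from the genes. Among 2202 hairpins in the GENCODE M21 annotation, the Mir151 and Mir28b hairpins had no 20-base stretch in common with another. The Mir28a hairpin shared 20 bases, covering bases 2 to 21 of miR-28a-5p, with Mir28c (chr15:53614205-53614279, minus strand), which was not among the listed genes. The Mir708 hairpin shared 23 bases, covering bases 2 to 23 of miR-708-5p, with the listed gene Gm23134 (chr2:157562361-157562447, minus strand). Gm23134 itself had 10 counts in each library. Such sharing was not rare, as 83 of the 365 detected genes (22.7%) had a 20-base stretch in common with another hairpin. Between the members, the longest shared stretch was the 16 bases common to the Mir151 and Mir28a hairpins. It covered bases 2 to 17 of miR-28a-5p and thus its seed. Where these bases lie in a mature miR-151 was not examined. Levels of Mir28a and Mir708 may therefore leave out reads that matched the second place equally well, and how many was not measured. Only annotated hairpins were searched, so matches elsewhere in the genome were not examined for any member, Mir151 and Mir28b included.

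Levels are given as CPM, the counts on the strand of the gene per 1000000 such counts at all listed miRNA genes. These totals were 6473482 in replicate 1 and 5841568 in replicate 2. Reads matching several places made up 29.5% and 31.9% of all reads. A gene was called detected with at least 10 counts in each library, which held for 365 genes, while 1248 of the 1973 listed genes had no count in either. The heart muscle miRNAs Mir208a, Mir208b and Mir499 were all detected and summed to 67703 and 67120 CPM. Mir208a stood at 6028 and 7084 CPM, Mir208b at 59090 and 57432 CPM and Mir499 at 2584 and 2604 CPM. The endothelial Mir126a stood at 85876 and 84222 CPM. In a bulk sample, fewer cells of a type and less RNA per cell cannot be told apart.

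Mir151 (ENSMUSG00000065612.1; chr15:73254815-73254882, minus strand, mm10) was the most abundant member. It had 32984 counts in replicate 1 and 26527 in replicate 2, or 5095 and 4541 CPM. The mean was 4818 ± 392 CPM (SD, n = 2), rank 30 among the detected genes. The Wilson 95% intervals, which cover counting error only, ran from 5041 to 5150.4 CPM and from 4487 to 4596 CPM. Replicate 2 was thus lower by more than counting error. Mir151 made up 72.6% and 71.0% of the counts of the 4 genes.

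Mir28a (ENSMUSG00000065494.1; chr16:24827855-24827940, plus strand) had 8613 and 7347 counts. These came to 1330.5 CPM in replicate 1 and 1258 CPM in replicate 2, with a mean of 1294 ± 51.5 CPM (SD, n = 2) and rank 74. The Wilson intervals were 1303 to 1359 CPM and 1229 to 1287 CPM. As for Mir151, they did not overlap, and replicate 1 was the higher. Mir28a gave 18.9% and 19.7% of the counts of the group.

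Mir708 (ENSMUSG00000076143.1; chr7:96249424-96249532, plus strand) had 3858 and 3500 counts. Its level was 596 CPM in replicate 1 and 599 CPM in replicate 2, a mean of 598 ± 2.25 CPM (SD, n = 2) at rank 100. The Wilson intervals, 577 to 615 CPM and 579.6 to 619 CPM, overlapped over most of their range. The libraries were therefore not told apart by counting error for this gene. Mir708 made up 8.49% and 9.36% of the counts of the group.

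Mir28b (ENSMUSG00000093140.1; chr8:73016512-73016591, plus strand) had 3 counts in replicate 1 and 3 in replicate 2. This is 0.463 CPM, with an interval of 0.158 to 1.36 CPM, and 0.514 CPM, with an interval of 0.175 to 1.51 CPM. The values equal the upper limit that a count of 0 allows, which is 3 counts. They fall short of the 10 counts needed in each library for detection. Mir28b was therefore not called detected at this depth, though a few reads were seen. Its hairpin shared no 20-base stretch with another hairpin, and no count lay on the strand opposite to it.

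**Figure D1:**
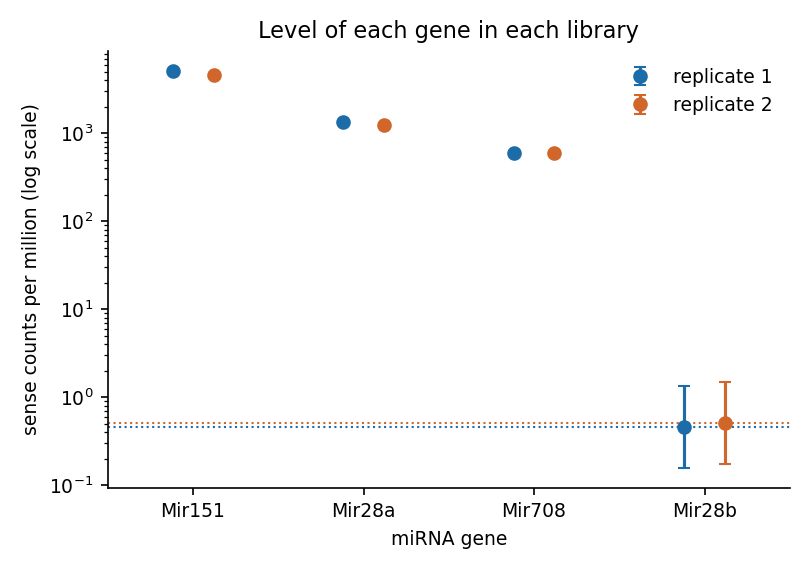
Sense CPM of the 4 genes (log axis) in replicate 1 and replicate 2, each point 1 library with its Wilson 95% interval; the dotted lines mark 3 counts in each library. Mir151 stood at 5095 and 4541 CPM, Mir28a at 1330.5 and 1258, Mir708 at 596 and 599, and Mir28b on the dotted lines at 0.463 and 0.514.

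The order of the genes was the same in both libraries. Mir151 exceeded Mir28a 3.83-fold in replicate 1 (exact Clopper-Pearson 95% interval 3.74 to 3.92) and 3.61-fold in replicate 2 (3.52 to 3.71), a log2 ratio of 1.89 ± 0.06 (SD, n = 2). Mir28a exceeded Mir708, which has the same 5p seed, 2.23-fold (2.15 to 2.32) and 2.10-fold (2.02 to 2.19), a log2 ratio of 1.11 ± 0.06. Every neighbouring pair differed by more than 2 SD of its log2 ratio, with both intervals on the same side of equality. Mir151 over Mir708 gave 8.55-fold (8.27 to 8.84) and 7.58-fold (7.32 to 7.85). For this pair and for Mir151 over Mir28a the intervals did not overlap between the libraries, while those of Mir28a over Mir708 did. Mir708 over Mir28b gave ratios of 1286 (439.7 to 6239) and 1167 (399 to 5660.0), wide because they rest on 3 counts of Mir28b. These ratios compare read counts of different miRNAs, and equal efficiency of sequencing for each miRNA was not tested.

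**Figure D2:**
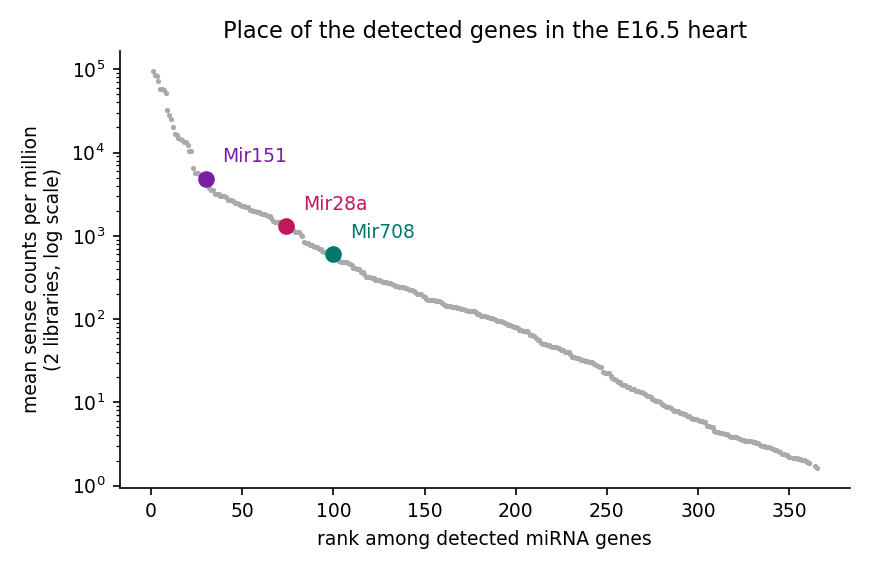
Mean sense CPM over the 2 libraries (log axis) of the 365 detected miRNA genes, in order of rank; the coloured points are the 3 detected members. Mir151 stood at rank 30, Mir28a at rank 74 and Mir708 at rank 100, with Mir28b below the detection limit and not drawn.

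Together the 4 genes held 0.702% of sense counts in replicate 1 and 0.640% in replicate 2 (0.671% ± 0.0441, SD, n = 2). The median level of the 3 detected members, which leaves out Mir28b, was 1294 CPM, beside a median of 108 CPM over all detected genes. Next to Mir151 in rank were Mir149 (4970.3 ± 542 CPM) and Mir487b (4710 ± 261 CPM), whose library values overlapped those of Mir151. Beside Mir28a, the values of Mir145a (1288 ± 182 CPM) overlapped those of Mir28a and the values of Mir27b (1388 ± 21.0 CPM) did not. Mir708 lay between Mir320 (611 ± 15.2 CPM) and Mir182 (549 ± 30.8 CPM), and neither overlapped it.

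The likeness of other genes was measured as the Euclidean distance of log2(CPM + 1) over the 2 libraries, which reflects level more than pattern with so few points. The 3 genes nearest to Mir151 were Mir487b (distance 0.0583), Mir149 (0.0729) and Mir411 (0.317), of which Mir487b and Mir411 belong to the imprinted Dlk1-Dio3 region. Those nearest to Mir28a were Mir382 (0.0339), also of that region, Mir27b (0.148) and Mir101b (0.192). Mir320 (0.0548), Mir674 (0.0961) and Mir676 (0.176) were nearest to Mir708.

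The 3 detected members lay in introns of protein-coding genes on the same strand, and Mir28b did not. In GENCODE M21, Mir151 lay in intron 22 of the principal transcript of Ptk2, which encodes focal adhesion kinase, 2151 bases from the upstream exon and 12337 bases from the downstream exon. Mir28a lay within an intron of 82814 bases of Lpp, a LIM-domain protein of focal adhesions; it is intron 8 in one principal transcript and intron 7 in the other. Mir708 lay in intron 1 of the principal transcript of Tenm4, which encodes a teneurin (a transmembrane protein of cell contacts), within an intron of 143365 bases. Mir28b had no annotated host on its own strand. None of these 3 hairpins in hosts overlapped an exon of the host. A host on the same strand was common, being annotated for 244 of 365 detected genes (66.8%) and for 1033 of the 1894 listed genes found in M21 (54.5%). Messenger RNA of the hosts was not measured, so the levels of host and miRNA were not compared.

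**Figure D3:**
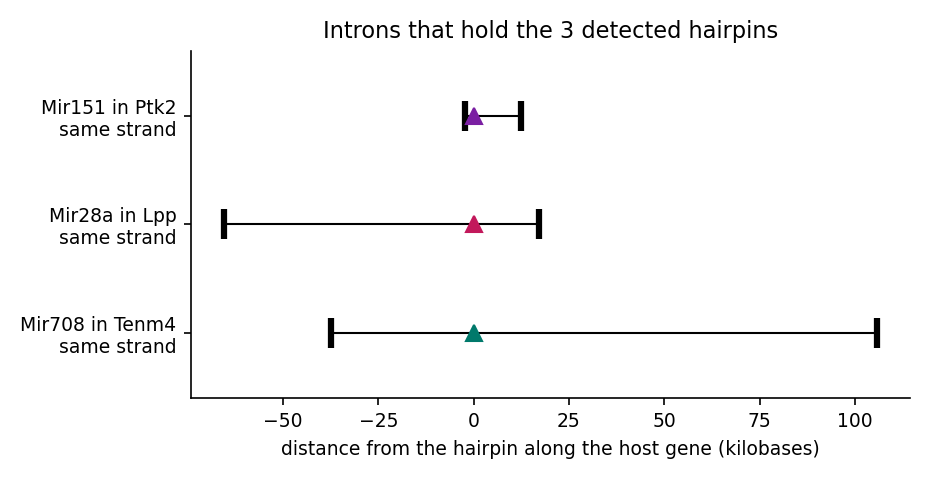
Host introns of the 3 detected members, to scale in kilobases along the direction of the host gene, with the hairpin at 0 (triangle) and bars at the flanking exon edges. Mir151 lies 2151 bases from the upstream exon of Ptk2, while the introns of Lpp and Tenm4 around Mir28a and Mir708 span 82814 and 143365 bases.

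The 3 detected members differed by at most 1.10-fold between the 2 pools. For every detected gene, the split of its counts between the libraries was set against library sizes scaled by TMM (trimmed mean of M values) in an exact binomial test, two-sided, with Benjamini-Hochberg adjustment over 365 genes. This test compares these libraries on counting error alone, and not conditions. Genes were called where they differed 2-fold or more with an adjusted p below 0.05. By this rule 0 of the 3 detected members were called, against 3.29% of all detected genes (12 of 365). With DESeq2 size factors in the same test 0 were called as well. Without the minimum fold, 2 of the 3 passed, with or without adjustment, against 46.3% of all detected genes. With only 3 genes, neither count can be told apart from the share over all detected genes.

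Mir151 was 1.10-fold lower in replicate 2 (log2 ratio of -0.14; exact binomial test, adjusted p = 1.78e-31). Mir28a was 1.04-fold lower (log2 ratio of -0.06, adjusted p = 0.0346), and its adjusted p was 0.0646 when genes with low counts were kept in the test. Mir708 was 1.02-fold higher in replicate 2, a difference that did not pass (adjusted p = 0.456). The median absolute log2 ratio of the 3 members was 0.06, beside 0.21 for all detected genes. The members had a higher median level (1294 CPM) than all detected genes (108 CPM), and ratios of genes with few counts carry more counting error. Genes of like level were not compared. In the order of absolute log2 ratio, 38.1% of detected genes lay below Mir151, 17.5% below Mir28a and 11.5% below Mir708. Without the minimum fold, 6 of 10 detected markers of other cell types passed, 3 higher and 3 lower in replicate 2, beside 46.3% of all detected genes. The epithelial Mir200c and Mir429, both detected, summed to 3531 CPM in replicate 1 and 2484 CPM in replicate 2. The red cell Mir451a and Mir144 summed to 2037 and 1719 CPM, and the leukocyte Mir223 and Mir155 to 563 and 685 CPM. The smooth muscle Mir143 and Mir145a summed to 97336.5 and 98086 CPM and the liver Mir122 stood at 159.9 and 161 CPM. Mir144, Mir223, Mir126a and Mir122 did not pass. Of the heart muscle miRNAs, Mir208a was 1.20-fold higher and Mir208b 1.01-fold lower in replicate 2, both passing, and Mir499 did not pass. The part of any of these markers in the difference of Mir151 was not tested.

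**Figure D4:**
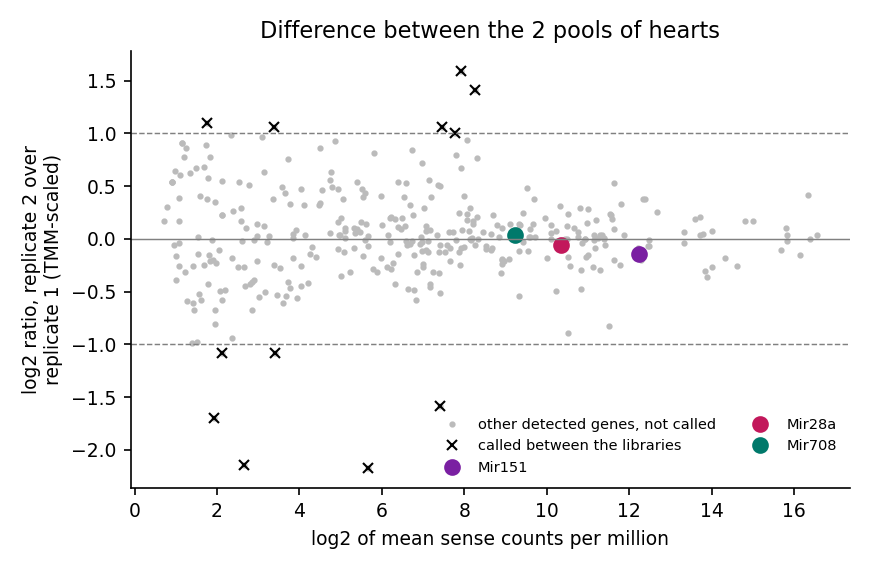
Log2 ratio of replicate 2 over replicate 1 (TMM-scaled) against the log2 mean CPM of the 365 detected genes; dashed lines mark 2-fold and crosses the 12 genes called. The members lie near the line of no difference, Mir151 at -0.14, Mir28a at -0.06 and Mir708 at 0.03.

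Other miRNAs whose human counterparts have been assigned to LINE2 elements stood lower than the detected members. Of 6 such genes, 4 were found by symbol among the listed genes, and all 4 were detected. Their median was 156 CPM and their sums were 589 and 607 CPM. Mir374b had 1659 and 1799 counts (282 ± 36.5 CPM) and Mir421 had 1704 and 1428 (254 ± 13.3 CPM). Both lie within Ftx, a non-coding gene of the X-inactivation centre. Mir493 had 427 and 305 counts (59.1 ± 9.72 CPM) and Mir325 only 25 and 11 (2.87 ± 1.40 CPM). All 4 lay below Mir708 and above the undetected member Mir28b (0.463 and 0.514 CPM) in both libraries. With the 2-fold minimum 0 of the 4 were called between the pools, beside 3.29% of all detected genes. Without it 2 of the 4 passed, beside 46.3% of all detected genes: Mir374b was 1.22-fold higher in replicate 2 (adjusted p = 1.43e-08) and Mir493 1.24-fold lower (adjusted p = 0.00966), with a median log2 ratio of -0.20 over the 4, beside 0.02 for all detected genes. Mir374c and Mir545 were not found by these symbols among the listed genes, so they were not read.

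A second list held miRNAs whose human counterparts were assigned to other transposable elements. Of 7, 6 were found by symbol among the listed genes and detected, and they spanned a wider range than the detected members. Mir335, within the imprinted gene Mest, stood at 82574 ± 15687 CPM. Mir652 stood at 10362 ± 178 CPM and Mir361 at 2000.3 ± 126 CPM. Mir330 (286 ± 5.55 CPM), Mir340 (152 ± 25.0 CPM) and Mir345 (62.9 ± 11.8 CPM) lay below Mir708 in both libraries. Mir151 thus stood between Mir652 and Mir361. By the same test 0 of these 6 were called with the 2-fold minimum (3.29% of all detected genes). Without it 4 were higher in replicate 2 and 1 lower (46.3% of all detected genes passed), with a median log2 ratio of 0.11. The widest of these differences were the 1.33-fold ones of Mir335 and Mir345. Mir378a was not found by that symbol among the listed genes, so it was not read here on either strand.

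**Figure D5:**
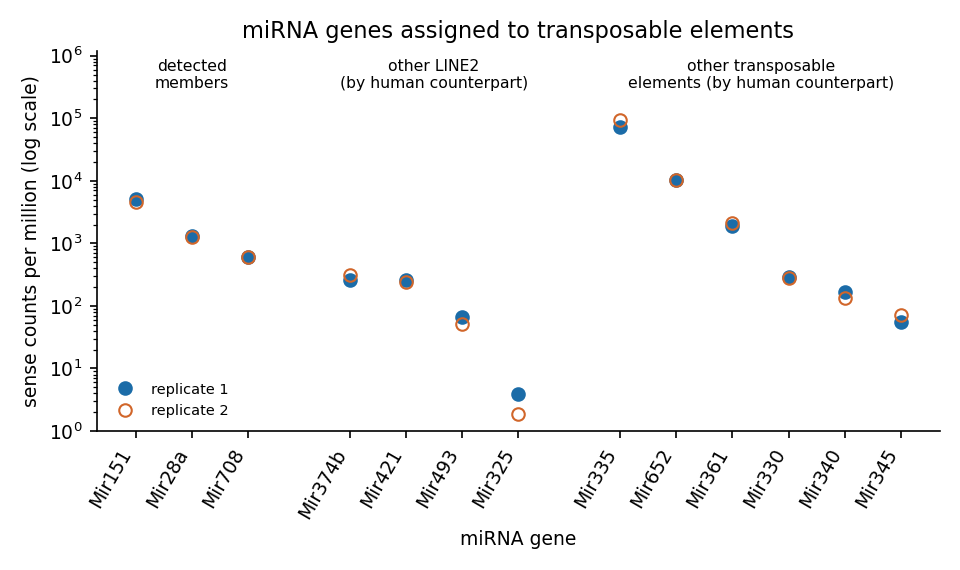
Sense CPM (log axis) in replicate 1 (filled) and replicate 2 (open) of the 3 detected members, of 4 other genes assigned to LINE2 and of 6 assigned to other transposable elements by their human counterparts. The 3 detected members, from 596 to 5095 CPM, lie above each of the other LINE2 genes. They lie within the range of the second list, which Mir335 leads at 82574 CPM.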

How the data were processed

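The authors deposited raw counts for each miRNA gene in 2 heart libraries, made on build mm10 with annotation M4, per the file listing deposited with each library. How reads were trimmed, aligned and counted is not given in the sources used here. The tables have 3 count columns, for either strand and for each strand. Sense was taken to be the strand column that had more gene counts, which was the same column in each table. The first 4 lines name no gene, held 54.9% and 51.7% of reads, and stayed out of all totals. No molecular identifiers are named, so intervals cover counting error only. The p-values likewise rest on counting error, with no allowance for spread between pools.

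Symbols, coordinates and hairpins came from GENCODE M21, matched on the identifier without its version. TMM factors were computed on detected genes with edgeR 4.0.16 in R 4.3.3, which had no contrast to test; log2 ratios add 0.5 to each count. The binomial test (scipy 1.17.1) was checked on simulated data that held counting error only, so the check did not cover spread between pools. Alternatives were DESeq2 1.42.0 size factors, total counts, other filters, the unstranded column, the total without its top gene and leaving out each replicate. Named genes were the members and their hosts, the 3 nearest genes of each, genes with a shared seed or 20-base stretch, and 2 lists; rank neighbours and markers were named as well. The members and lists were chosen with earlier results of these data known.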

Additional observations from a re-analysis of the deposited data

Results flagged for a closer look

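Mir708 carried counts on the strand opposite to it, which no comparison above uses. There were 15 in replicate 1 and 22 in replicate 2, or 0.387% and 0.625% of the counts at that gene, above the 3 counts that a count of 0 allows. Hosts were searched for on the strand of each member only, so genes on the opposite strand were not examined. Mir28a had 1 such count in each library, and Mir151 and Mir28b had 0. Of the 365 detected genes, 333 had no opposite-strand count in either library and 10 had more than 3 in each. The source of these counts was not tested.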

How the results depend on the processing

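The direction of the difference between the pools held for Mir151 and Mir28a under total-count scaling, DESeq2 size factors, the unstranded column and no count filter, and for Mir708 under all of these except DESeq2 size factors, where its log2 ratio was -0.00086. No member was called under any of them. Leaving the most abundant gene out of the total raised the levels beyond 1 SD, to 5332 CPM for Mir151, 1432 for Mir28a, 661 for Mir708 and 0.541 for Mir28b. The unstranded column gave 1218 CPM for Mir28a and 565 for Mir708; each level is a share of its total. The number of genes called between the pools was 12, and 21 with no count filter, 6 with at least 50 counts, 11 with total-count scaling, 10 with DESeq2 size factors and 169 with no minimum fold. With 16 shared bases in place of 20, matches of members to other hairpins numbered 5 in place of 2. In all, 42 of the alternative values were labelled unchanged, 10 moved and 1 reversed. Unchanged meant within 1 SD for levels and for ratios between members, and the same direction and call for differences between the pools. For the numbers of genes called, members detected and shared stretches, it meant an equal or similar number. No paired analysis was possible because there is a single group. With 2 libraries an SD is a rough estimate, and Mir28b, at 3 counts, is limited by depth.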
